A study of Homo sapiens with 12 samples.

Results

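RNA-seq libraries of Hs 578T cells that expressed exogenous NRF2 or GFP were compared after 8 h without cystine (Cyss), to find which genes full-length NRF2 changes in cells deprived of this amino acid. The comparison used 6 of the 12 libraries of the series, namely 3 of NRF2 cells and 3 of GFP cells, which were chosen by their labels for genotype and medium and normalized on their own. Hs 578T is an established line of triple-negative breast cancer (TNBC), a tumor type defined by the lack of estrogen receptor, progesterone receptor and HER2. Both groups had been transduced with lentiviral particles, one carrying NRF2 and the other GFP as the control, and both were kept for the 8 h in DMEM without cystine, with 0.2 mM methionine, glutamine and serum. The other 6 libraries came from the same pair of cell populations in medium with 0.8 mM cystine, and were used here only to ask whether the effect of NRF2 differed between the media. The labels do not say whether the replicates of a group came from separate transductions or cultures, so the p values measure the spread between these libraries, which may be technical.

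NRF2, encoded by NFE2L2, is a transcription factor that KEAP1 holds in the cytoplasm and passes to the proteasome until oxidants or electrophiles modify the cysteines of KEAP1. Stabilized NRF2 pairs with a small MAF protein and binds antioxidant response elements, which drive genes for glutathione and thioredoxin synthesis, detoxification of quinones and carbonyls, iron storage and NADPH production. One of its targets, SLC7A11, encodes the subunit of the xCT antiporter that imports cystine, and cystine is reduced in the cell to cysteine, the limiting building block of glutathione.

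Reads counted on genes numbered from 29024499 to 34958101 per library. Genes were tested where the mean normalized count, which is the read count scaled to the effective size of the library, was at least 10 in either group, which left 17297 of 55242 genes. A differentially expressed gene (DEG) had an adjusted p under 0.1 by the quasi-likelihood test of edgeR, adjusted after Benjamini and Hochberg over all 17297 genes, and a log2 fold change (log2FC) above 0.32 in size, that is 1.25-fold. Errors of a log2FC are standard errors of the fit, and values by library are given in the order of replicates 1, 2 and 3. In the first 2 principal components of the 17297 genes, PC1 held 45.02% of the variance and separated the groups. GFP replicate 3 stood apart from GFP replicates 1 and 2 on PC1 and lay 28.4% of the way from their mean to the mean of the NRF2 libraries. Counts of called genes in the lists described are therefore also given without GFP replicate 3 where they changed. Over all components its mean distance to the other GFP libraries was 39.3, against 37.9 and 38.8 for GFP replicates 1 and 2. The NRF2 libraries were spread on PC2 (18.2% of the variance), with replicate 1 at 22.5 and replicates 2 and 3 at -4.20 and -14.9.

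**Figure D1:**
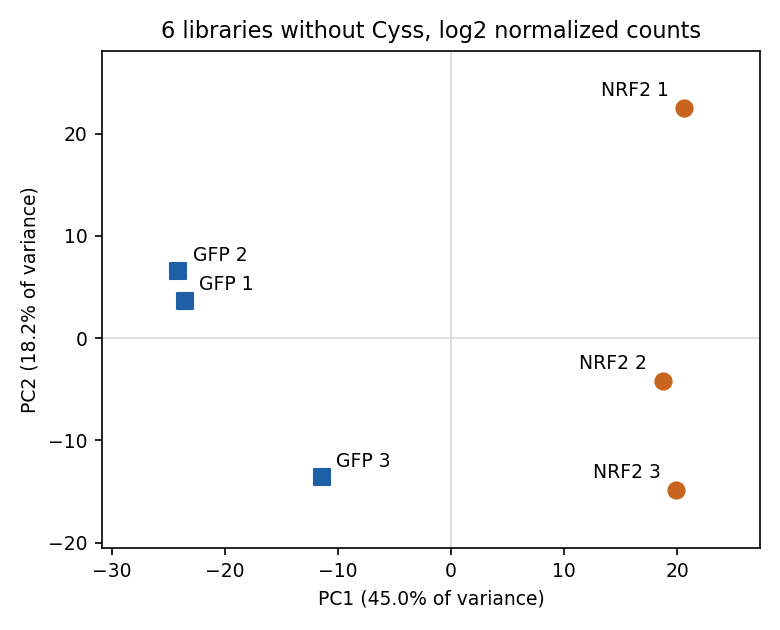
First 2 principal components of log2 normalized counts of 17297 genes, with 1 point per library (circles, NRF2 without Cyss; squares, GFP without Cyss) and the replicate number beside it. The 3 NRF2 libraries lie at the right on PC1 (45.02% of the variance), and GFP replicate 3 lies between them and the other GFP libraries.

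The labels call the line an epithelial tumor line. Mesenchymal markers were abundant, with 140694 to 161004 normalized counts of VIM (vimentin) in the NRF2 libraries, and the summed level of 7 mesenchymal markers ran from 204035 to 224938 in NRF2 cells and from 212801 to 215240 in GFP cells. The defining epithelial markers were near the floor. EPCAM, an adhesion molecule of epithelia, had no more than 0.974 counts in any library, and CDH1 (E-cadherin) had 5.96, 2.92 and 3.79 counts in NRF2 cells and 11.5, 13.2 and 6.26 in GFP cells. The sum of 9 epithelial markers ranged from 1251 to 1526 in NRF2 cells and from 1291 to 1614 in GFP cells, most of it KRT18. Markers of blood, endothelial, fat, neural and liver cells, 11 genes in all, summed to 55.0 to 69.2 counts in NRF2 cells and 73.8 to 86.7 in GFP cells, and 2 of the 11 were at 0 in every library. Because RNA was taken from whole cultures, fewer cells of a kind and less RNA per cell cannot be told apart.

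NFE2L2 checks the labels. It had 6913, 7727 and 8046 normalized counts in the NRF2 libraries and 4459.6, 4379 and 4275 in the GFP libraries. All 3 NRF2 libraries lay above all 3 GFP libraries, and the level was 1.73-fold higher (log2FC 0.79 ± 0.05, edgeR adjusted p = 6.38e-06). An exact two-sided permutation test over the 6 libraries gave p = 0.1, the smallest value that 3 against 3 libraries allow. The counts do not separate the transcripts of the vector from those of the cell's own gene, which lies at chr2:178083395-178257484, minus strand, in GENCODE 44 on GRCh37, and shares exonic bases there with AGPS and HNRNPA3 on the opposite strand, whose reads the counting without regard to strand could not assign. With Cyss the increase had a log2FC of 0.84, and the difference between the media was -0.03 ± 0.07 (interaction, edgeR adjusted p = 0.789).

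NRF2 upregulated 1034 genes and downregulated 708 without Cyss, which is 5.98% and 4.09% of the genes tested and 10.1% in all. Scaled by library size alone, 876 were up- and 1001 downregulated, so that the excess of increases depends on the scaling. The groups did not overlap for 974 of the upregulated and 655 of the downregulated genes, while over all genes tested 18.1% had every NRF2 library above every GFP library and 19.7% had every one below. Increases were the larger changes. Among upregulated genes the median log2FC was 0.50 and 146 exceeded 1, whereas among downregulated genes the median was -0.44 and 40 fell below -1. The median over all genes tested was -0.02. Without GFP replicate 3, 928 of the 1034 upregulated and 581 of the 708 downregulated genes were called again. This library was the highest GFP library in 71.3% of the upregulated genes, against 31.7% of all genes, and the lowest in 61% of the downregulated genes, against 37% of all.

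Fewer genes were called with Cyss. In a fit of all 12 libraries, NRF2 upregulated 176 and downregulated 18 of the same 17297 genes with Cyss, 1.02% and 0.104%. Of the 1034 genes upregulated without Cyss, 96 were also upregulated with it, and their median log2FC with Cyss was 0.04. The test of the difference between the media, an interaction term over the 12 libraries with an adjusted p under 0.1, called 15.1% of 17674 genes, 8.97% with a higher and 6.13% with a lower effect of NRF2 without Cyss (1585 and 1084 genes, but 1124 and 1981 when scaled by library size alone). It was passed in the same direction by 643 of the 1034 upregulated and 355 of the 708 downregulated genes, and in the opposite direction by 7 and 0. The calls and the interaction share the 6 libraries without Cyss, so the 2 counts are not independent.

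The antioxidant response element was looked for as the letters TGACNNNGC, on both strands, in RefSeq promoter windows of 300 bases (250 before to 50 after the start of a gene, GRCh38.p14). The stretches below, which leave out a match in LUCAT1 and a further one in TXNRD1, are from upregulated NRF2 targets whose window held the letters. They show the element as it stands in genes that responded. Each runs 5′ to 3′ on the strand of its gene, with the match in capitals, read as its reverse complement in GCLM and the last of TXNRD1.
GCLM, chr1:93909445-93909474, minus strand, first matched base 34 before the start: tacgatttctGCTTAGTCAttgtcttccag
TXNRD1, chr12:104215670-104215699, plus strand, first matched base 99 before a start: acacgggctaTGACTTCGCtgttgtcaccg
TXNRD1, chr12:104286920-104286949, plus strand, first matched base 102 before another start: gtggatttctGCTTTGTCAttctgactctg
EPHX1, chr1:225825266-225825295, plus strand, first matched base 78 before the start: tgagattggcTGACTTGGCaggactgtgca
The letters were in the windows of 12 of the 32 NRF2 targets with a window (37.5%), of 19.3% of the tested genes with a window and of 13.3% of all windows. The shares of genes count a match in any window of a gene. The last share counts single windows and so cannot be set against them. A match was held by 19.2% of the upregulated DEGs with a window and by 18.3% of the downregulated DEGs. Among NRF2 targets, 4 of 9 that were upregulated and 8 of 23 that were not held a match, for example GSTP1 (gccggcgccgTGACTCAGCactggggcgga, chr11:67583736-67583765, plus strand), which was not called. A match is a stretch of letters and no evidence of binding, and a window without one says nothing of elements elsewhere.

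Of 48 known NRF2 targets listed by role, 45 were tested. Without Cyss 14 of these were upregulated and 1 downregulated, or 15 and 2 without GFP replicate 3. Of all genes tested, 5.98% and 4.09% were so called. With Cyss, 15 were upregulated, 11 of them the same genes, and the downregulated gene, CBR3, was not called. The median log2FC over the 45 was 0.10 without and 0.24 with Cyss. The interaction was passed by 22 of the 45, by 20 of them with a lower log2FC without than with Cyss, where 6.13% of all genes did so. CBR3, which fell without Cyss, is among the 20.

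In glutathione metabolism, 4 of 11 tested targets rose. SLC7A11, the cystine transporter, had 7963, 7731 and 6722 normalized counts in the NRF2 libraries and 4849, 4542 and 4982 in the GFP libraries, with no overlap (log2FC 0.64 ± 0.07, edgeR adjusted p = 0.000284). GCLM and GCLC encode the modifier and the catalytic subunit of glutamate-cysteine ligase, the first enzyme of glutathione synthesis. GCLM had 3797, 4288 and 3597 normalized counts in the NRF2 libraries and 2703, 2660.5 and 2889 in the GFP libraries (log2FC 0.50 ± 0.07, edgeR adjusted p = 0.000581) and GCLC had 1760.04, 1834 and 1941 normalized counts in the NRF2 libraries and 1569, 1366 and 1467 in the GFP libraries (log2FC 0.33 ± 0.06, edgeR adjusted p = 0.00258). The groups overlapped in neither. ABCC3, an export pump for organic anions and conjugates, rose to 1.62-fold (log2FC 0.70 ± 0.09, edgeR adjusted p = 0.000466). The increases of these genes with Cyss had log2FCs of 0.64, 0.24, 0.49 and 0.60, and the interaction was not passed by any of the 4. GSS, which completes glutathione, had a log2FC of -0.13 ± 0.05, GSR, which reduces oxidized glutathione, 0.17 ± 0.06, and GSTP1, a conjugating enzyme, -0.14 ± 0.06, and none of these was called.

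Of 5 thioredoxin targets 2 rose. TXNRD1, thioredoxin reductase, had 10238, 11268 and 12354 normalized counts in the NRF2 libraries and 7007, 7251 and 8024 in the GFP libraries, all NRF2 libraries above all GFP libraries (log2FC 0.60 ± 0.07, edgeR adjusted p = 0.000299), and its effect was larger than with Cyss by 0.27 ± 0.08 on the log2 scale (interaction, edgeR adjusted p = 0.0381). SRXN1, sulfiredoxin, had 116, 145 and 141 normalized counts in the NRF2 libraries and 94.9, 99.9 and 108 in the GFP libraries, without overlap (log2FC 0.41 ± 0.12, edgeR adjusted p = 0.032). TXN itself and the peroxiredoxins PRDX1 and PRDX6 were not called, with log2FCs of -0.21, -0.14 and -0.14.

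Enzymes that reduce carbonyls and quinones gave the largest fold increases among target enzymes, with 4 of 9 upregulated and 1 downregulated. AKR1C1, an aldo-keto reductase, had 1767, 1809 and 1924 normalized counts in the NRF2 libraries and 1046, 975 and 982 in the GFP libraries, which is 1.83-fold (log2FC 0.87 ± 0.05, edgeR adjusted p = 2.78e-06). AKR1C2 had 83.4, 75.0 and 91.0 normalized counts in the NRF2 libraries and 23.0, 36.2 and 32.4 in the GFP libraries (log2FC 1.45 ± 0.18, edgeR adjusted p = 0.000423) and AKR1B10 had 108, 107 and 114 normalized counts in the NRF2 libraries and 64.2, 61.5 and 51.2 in the GFP libraries (log2FC 0.89 ± 0.13, edgeR adjusted p = 0.00097). These levels did not overlap between the groups, although AKR1C1, AKR1C2 and AKR1C3 have similar sequences between which reads can be misassigned. With Cyss the log2FCs were larger, 1.33, 2.19 and 1.44, and the interaction gave -0.44 ± 0.06, -0.72 ± 0.24 and -0.53 ± 0.15 (edgeR adjusted p = 0.000671, 0.0722 and 0.033). EPHX1, the microsomal epoxide hydrolase, rose by a log2FC of 0.37 ± 0.05. NQO1, the quinone reductase often used as a readout of NRF2, was among the most abundant targets and had 11677, 12816 and 13147 normalized counts in the NRF2 libraries and 11941, 11955 and 11407 in the GFP libraries. Its groups overlapped and it was not called (log2FC 0.09 ± 0.05, edgeR adjusted p = 0.198). CBR3, a carbonyl reductase, fell (log2FC -0.43 ± 0.10, edgeR adjusted p = 0.00918), with 373, 445 and 351 normalized counts in the NRF2 libraries and 557, 552 and 469.8 in the GFP libraries, and its effect differed from that with Cyss by -0.50 ± 0.12 (edgeR adjusted p = 0.0114). In this list 8 of 9 genes, all but EPHX1, passed the interaction with a lower log2FC without than with Cyss. For CBR3 this was a decrease without Cyss and not a smaller increase.

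For heme and iron, 2 of 6 targets rose, and 1 was called downregulated once GFP replicate 3 was left out. HMOX1 (heme oxygenase, which opens the heme ring) had 3037, 3597 and 4328 normalized counts in the NRF2 libraries and 2411, 2622 and 2703 in the GFP libraries (log2FC 0.50 ± 0.09, edgeR adjusted p = 0.00378) and FTH1, the heavy chain of ferritin, 6949.8, 7047 and 6101 normalized counts in the NRF2 libraries and 5352, 5242 and 4739.99 in the GFP libraries (log2FC 0.39 ± 0.07, edgeR adjusted p = 0.00214), in both cases without overlap. FTL, the ferritin light chain, was not called (0.06 ± 0.06), nor were BLVRA and BLVRB, which reduce biliverdin (-0.30 ± 0.06 and -0.10 ± 0.07). FTH1 has many near-identical pseudogenes, and its exons share bases with BEST1 on the other strand. None of the 6 targets that supply NADPH was called by edgeR, where 3 had an unadjusted p under 0.05, as 34.5% of all genes tested did. DESeq2 called 1, and so did edgeR without GFP replicate 3. TALDO1, TKT and PGD, enzymes of the pentose phosphate pathway, had log2FCs of 0.10, 0.03 and 0.02. Among the remaining targets, the long noncoding RNA LUCAT1 had 95.4, 96.5 and 98.6 normalized counts in the NRF2 libraries and 27.8, 24.2 and 26.1 in the GFP libraries, a 3.70-fold increase without overlap (log2FC 1.89 ± 0.15, edgeR adjusted p = 3.09e-05). OSGIN1, an oxidative stress-induced growth inhibitor, had 314, 370.3 and 429 normalized counts in the NRF2 libraries and 171, 215 and 247 in the GFP libraries (log2FC 0.82 ± 0.13, edgeR adjusted p = 0.00184). TRIM16L was not called without Cyss (log2FC 0.01 ± 0.08) and had a log2FC of 0.54 with Cyss, with an interaction of -0.52 ± 0.08 (edgeR adjusted p = 0.00112).

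**Figure D2:**
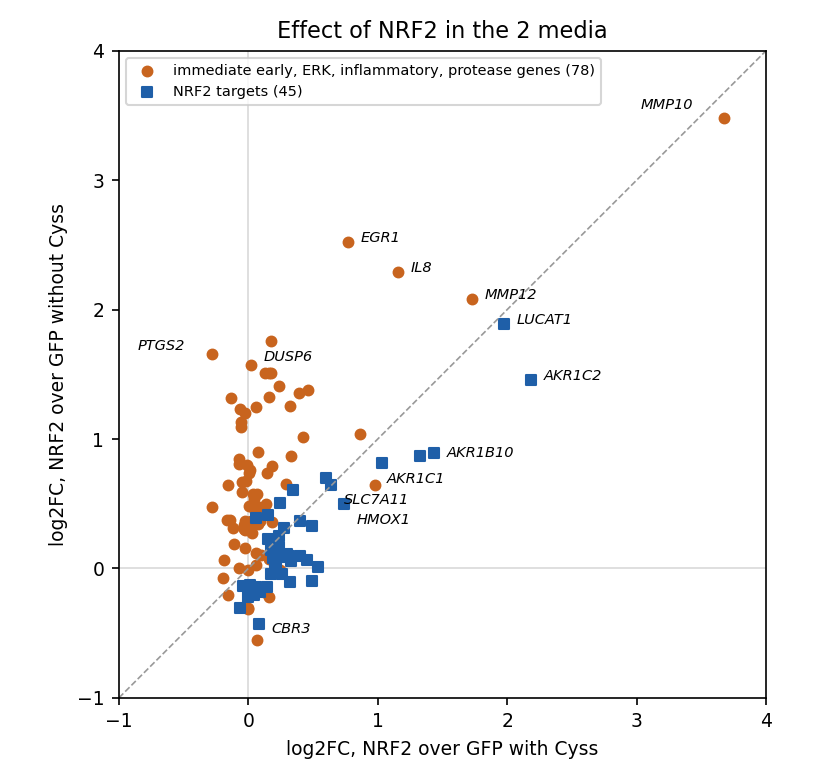
Log2FC of NRF2 over GFP cells with Cyss (horizontal axis) and without Cyss (vertical axis), from the 12-library and the 6-library fit, for 45 NRF2 targets (squares) and 78 genes of the immediate early, ERK, inflammatory and protease lists (circles). The dashed line marks equal effects. Most squares lie on or below it, as for AKR1C2 (1.45 without, 2.19 with Cyss), and many circles stand above it near 0 with Cyss, as for DUSP6 (1.57 without, 0.02 with Cyss).

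Among the partners and regulators of NRF2, 3 of 13 rose (23.1%, against 5.98% of all genes tested). These were the small MAF genes MAFF, with 1266, 1414 and 1628 normalized counts in the NRF2 libraries and 712, 896 and 1018 in the GFP libraries (log2FC 0.72 ± 0.11, edgeR adjusted p = 0.00149), and MAFK (log2FC 0.47 ± 0.10, edgeR adjusted p = 0.00607), and BACH1, whose product competes with NRF2 for the same elements (log2FC 0.38 ± 0.06, edgeR adjusted p = 0.00165). KEAP1 and CUL3, which form the ligase that marks NRF2 for degradation, had log2FCs of 0.07 ± 0.06 and 0.07 ± 0.04 and were not called.

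The 2 largest increases among genes with at least 50 counts were of secreted proteins whose effect did not pass the test of a difference between the media. MMP10, a stromelysin that cleaves matrix proteins, had 398, 431 and 522 normalized counts in the NRF2 libraries and 42.2, 27.4 and 50.1 in the GFP libraries, 11.2-fold higher (log2FC 3.48 ± 0.16, edgeR adjusted p = 2.27e-07), and the interaction was -0.18 ± 0.28 (edgeR adjusted p = 0.747). SPP1, osteopontin, had 319, 359.6 and 410.4 normalized counts in the NRF2 libraries and 40.3, 31.8 and 38.6 in the GFP libraries, 9.76-fold higher (log2FC 3.29 ± 0.14, edgeR adjusted p = 1.14e-07), with an interaction of 0.14 ± 0.19 (edgeR adjusted p = 0.687). SCN1A, a sodium channel subunit of neurons, had 71.5, 72.1 and 57.8 normalized counts in the NRF2 libraries and 9.58, 17.6 and 18.8 in the GFP libraries (log2FC 2.14 ± 0.23, edgeR adjusted p = 0.000284). The groups did not overlap in these 3 genes, but the 15 most increased genes were chosen among genes without overlap. Over all genes tested, 18.1% had every NRF2 library above every GFP library. The interaction was passed by none of MMP10, SPP1 and SCN1A nor by LUCAT1. It was passed by the remaining 11 of the 15. These include EGR1, ESM1, IL8, ANGPTL4, SERPINB2, CXCL3, PTGS2, STC1 and DUSP6 and 2 transcripts known by clone names.

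Immediate early genes, transcription factors and others that respond within minutes to growth factors and stress, rose in number. Of 21 tested, 14 were upregulated (66.7%, against 5.98% of all genes tested), with a median log2FC of 0.48 without and 0.06 with Cyss. EGR1 had 1777, 1532 and 1924 normalized counts in the NRF2 libraries and 224, 260.2 and 428 in the GFP libraries, so that every NRF2 library lay above every GFP library and GFP replicate 3 was the highest of its group. The level was 5.74-fold higher (log2FC 2.52 ± 0.17, edgeR adjusted p = 6.38e-06), and the effect exceeded that with Cyss by 1.76 ± 0.23 (edgeR adjusted p = 0.000639). EGR3 had 149, 171 and 209 normalized counts in the NRF2 libraries and 35.5, 48.3 and 103 in the GFP libraries (log2FC 1.51 ± 0.27, edgeR adjusted p = 0.00272) and FOS had 120.2, 93.5 and 112 normalized counts in the NRF2 libraries and 41.2, 36.2 and 58.5 in the GFP libraries (log2FC 1.26 ± 0.18, edgeR adjusted p = 0.000851). JUN, FOSL1 and MYC, at higher levels, rose by log2FCs of 0.74 ± 0.11, 0.48 ± 0.08 and 0.50 ± 0.07. In JUN, with 8036, 8602 and 9582 normalized counts in the NRF2 libraries and 4398, 4994 and 6308 in the GFP libraries, the groups did not overlap and GFP replicate 3 lay nearest to the NRF2 libraries. Members that were not called included NR4A2 (0.03 ± 0.22), FOSL2 (-0.17 ± 0.07) and JUND (-0.19 ± 0.09). Without GFP replicate 3, 14 were again upregulated, and KLF4 passed as downregulated (-0.31 with and -0.33 without that library).

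Feedback regulators and transcriptional outputs of the ERK pathway rose in 12 of 14 cases (13 without GFP replicate 3). This was 85.7%, against 5.98% of all genes tested. The interaction was passed by 13 of 14 with a higher effect of NRF2 without Cyss, where 8.97% of all genes did so. The median log2FC was 0.80. DUSP6, a phosphatase that removes the activating phosphates of ERK, had 3021, 4023 and 4749.7 normalized counts in the NRF2 libraries and 751, 1028 and 2182 in the GFP libraries (log2FC 1.57 ± 0.28, edgeR adjusted p = 0.00307). DUSP5 and DUSP4, phosphatases of the same family, had 545, 699 and 772 normalized counts in the NRF2 libraries and 178, 225 and 356 in the GFP libraries (log2FC 1.41 ± 0.19, edgeR adjusted p = 0.000586) and 826, 904 and 1079 normalized counts in the NRF2 libraries and 297, 330.5 and 469 in the GFP libraries (log2FC 1.36 ± 0.14, edgeR adjusted p = 0.000224). In all 3, the groups did not overlap and GFP replicate 3 was the highest GFP library. Without it the log2FCs were larger, 2.15, 1.75 and 1.58. The Sprouty and SPRED genes, whose products dampen signaling from receptor tyrosine kinases to RAS, followed, with SPRY4 (1987, 2259.7 and 2709 normalized counts in the NRF2 libraries and 684, 747 and 1352 in the GFP libraries) at a log2FC of 1.32 ± 0.19, SPRY2 at 1.23 ± 0.16, SPRED1 at 0.80 ± 0.09 and SPRED2 at 0.65 ± 0.09. SPRY1, at a low level, was not called (-0.56 ± 0.24, edgeR adjusted p = 0.119). The ETS factors ETV4, ETV5 and ETV1 rose by 0.47 ± 0.10, 0.36 ± 0.07 and 0.35 ± 0.07. Upstream, 3 of 5 tested genes of the EGF family rose (60%, against 5.98% of all genes tested). HBEGF, a ligand of the EGF receptor, had 495, 611 and 735 normalized counts in the NRF2 libraries and 267, 262 and 376 in the GFP libraries (log2FC 1.02 ± 0.15, edgeR adjusted p = 0.000859). EGFR itself had 14598, 14297 and 15514 normalized counts in the NRF2 libraries and 10019, 9941 and 11414 in the GFP libraries (log2FC 0.50 ± 0.06, edgeR adjusted p = 0.00037), and ERRFI1, a feedback inhibitor that binds the receptor, rose by 0.70 ± 0.13. With Cyss these 3 genes had log2FCs of -0.10, -0.05 and -0.11.

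**Figure D3:**
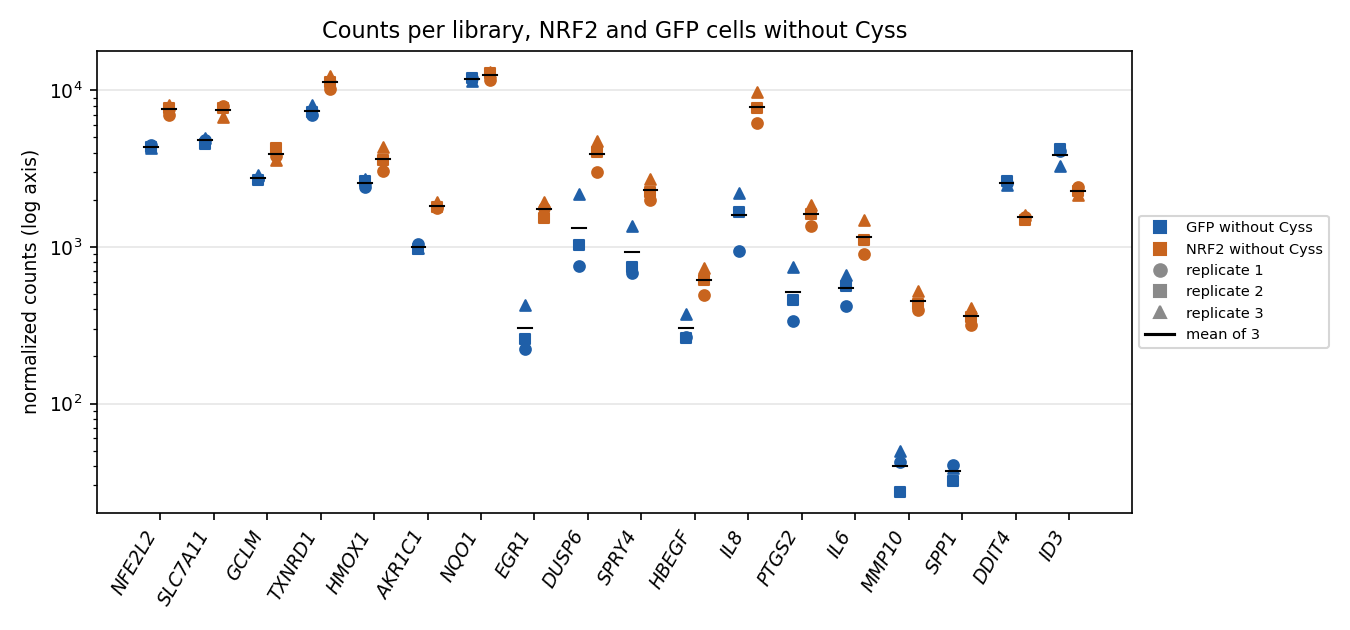
Normalized counts (log axis) of 18 genes in each of the 6 libraries without Cyss, GFP at the left and NRF2 at the right of each gene, with the marker giving the replicate and the bar the mean of 3. In DUSP6, SPRY4, HBEGF and PTGS2 the triangle of GFP replicate 3 stands above its group and below every NRF2 library, whereas in AKR1C1, MMP10 and SPP1 the groups are separated by a wide gap, and in NQO1 they overlap.

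Of 25 tested inflammatory genes, 16 were upregulated (17 without GFP replicate 3), or 64%, against 5.98% of all genes tested. Their median log2FC was 0.66 without and 0.05 with Cyss. IL8 (CXCL8), which attracts neutrophils, had 6143, 7706 and 9762 normalized counts in the NRF2 libraries and 943, 1672 and 2217 in the GFP libraries, 4.88-fold higher and without overlap (log2FC 2.29 ± 0.23, edgeR adjusted p = 0.000224). It also rose with Cyss, by 1.16, and the difference between the media was 1.14 ± 0.27 (edgeR adjusted p = 0.0142). PTGS2, the cyclooxygenase that starts the synthesis of prostaglandins, had 1365, 1613 and 1866 normalized counts in the NRF2 libraries and 338, 460.1 and 741 in the GFP libraries (log2FC 1.66 ± 0.20, edgeR adjusted p = 0.000379), and with Cyss its log2FC was -0.28. The related chemokines CXCL3 and CXCL2, whose similar sequences may share reads, had log2FCs of 1.75 ± 0.21 and 1.51 ± 0.20. IL6 had 907, 1115 and 1476 normalized counts in the NRF2 libraries and 419.8, 564 and 661 in the GFP libraries (log2FC 1.09 ± 0.16, edgeR adjusted p = 0.00118), and GFP replicate 3 was again the highest GFP library. The cytokines LIF, IL1B and IL11 rose by 1.20 ± 0.19, 1.13 ± 0.13 and 0.80 ± 0.13, and ICAM1, an adhesion molecule for leukocytes, by 1.25 ± 0.14. NF-kB regulators rose less, with NFKBIZ at 0.66 ± 0.06, TNFAIP3 at 0.57 ± 0.08 and RELB at 0.54 ± 0.06. NFKBIA (0.16 ± 0.07) and CXCL12 (-0.18 ± 0.06) were not called. The alarmin IL33 had 15.9, 20.5 and 20.9 counts in NRF2 cells and 0.958, 3.29 and 18.8 in GFP cells, where GFP replicate 3 lay within the NRF2 range, and of the fits that left out 1 library it was called only in the one without GFP replicate 3.

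Proteases and their inhibitors rose in 10 of 18 tested cases (55.6%, against 5.98% of all genes tested). Besides MMP10, the collagenase MMP1 had 621, 779.5 and 1043 normalized counts in the NRF2 libraries and 216, 246 and 399 in the GFP libraries (log2FC 1.51 ± 0.20, edgeR adjusted p = 0.000608) and the stromelysin MMP3 had 859, 949 and 1379 normalized counts in the NRF2 libraries and 293, 401 and 535 in the GFP libraries (log2FC 1.38 ± 0.19, edgeR adjusted p = 0.000726), neither with overlap. MMP12, a macrophage elastase, was low but separated, with 21.9, 20.5 and 28.4 normalized counts in the NRF2 libraries and 4.79, 3.29 and 8.35 in the GFP libraries (log2FC 2.08 ± 0.35, edgeR adjusted p = 0.002). Of the plasminogen system, the genes of the activators PLAU and PLAT rose by log2FCs of 0.67 ± 0.11 and 0.76 ± 0.16, the receptor PLAUR by 0.66 ± 0.17 and the inhibitor SERPINB2 by 1.79 ± 0.25. SERPINB2 had 4968, 6508 and 7767 normalized counts in the NRF2 libraries and 1132, 1567 and 2850.3 in the GFP libraries. The abundant MMP14, which is anchored in the membrane, rose by 0.44 ± 0.08, whereas MMP2 (0.07 ± 0.04), TIMP1 (0.00 ± 0.07) and TIMP2 (0.10 ± 0.04) were not called. In the matrix list, 4 of 32 rose and 1 fell, or 12.5% and 3.12%, against 5.98% and 4.09% of all genes tested. HAS2, a hyaluronan synthase, had the largest increase in counts among upregulated genes without overlap, with 21677, 26783 and 29609.9 normalized counts in the NRF2 libraries and 7917, 9611 and 16236 in the GFP libraries (log2FC 1.21 ± 0.20, edgeR adjusted p = 0.00191), and TNC, tenascin-C, rose by 0.49 ± 0.05. POSTN, periostin, had the largest decrease in counts among downregulated genes without overlap, with 227366, 264294 and 263764 normalized counts in the NRF2 libraries and 316529, 317185 and 309321 in the GFP libraries (log2FC -0.32 ± 0.05, edgeR adjusted p = 0.00179), just past the fold threshold. Of 22 integrin and laminin genes 8 rose (10 without GFP replicate 3), or 36.4%, against 5.98% of all genes tested. They were led by ITGA2, a subunit of a collagen receptor, with 13897, 15751 and 17515 normalized counts in the NRF2 libraries and 6340.00, 6516 and 9835 in the GFP libraries (log2FC 1.05 ± 0.14, edgeR adjusted p = 0.00054), and by LAMA1, LAMB3 and ITGB3 at 0.83 ± 0.16, 0.76 ± 0.08 and 0.71 ± 0.14.

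Secreted growth and vascular factors rose in 11 of 16 tested cases (68.8%, against 5.98% of all genes tested). Their median log2FC was 0.46 without and -0.02 with Cyss. ANGPTL4, an inhibitor of lipoprotein lipase, had 97.3, 140.3 and 209 normalized counts in the NRF2 libraries and 14.4, 27.4 and 60.6 in the GFP libraries (log2FC 2.14 ± 0.36, edgeR adjusted p = 0.00211) and STC1, stanniocalcin, had 12536, 15759 and 19467 normalized counts in the NRF2 libraries and 3711, 4088 and 7971 in the GFP libraries (log2FC 1.59 ± 0.23, edgeR adjusted p = 0.00101). ESM1, a proteoglycan of endothelial cells that falls outside this list, had 349, 513 and 574 normalized counts in the NRF2 libraries and 35.5, 76.9 and 179 in the GFP libraries (log2FC 2.32 ± 0.34, edgeR adjusted p = 0.000958). In all 3 genes the GFP libraries ranged widely and GFP replicate 3 was the highest, yet below every NRF2 library. VEGFA, VEGFC, FGF2 and KITLG rose by 0.54 ± 0.09, 0.40 ± 0.07, 0.52 ± 0.06 and 0.53 ± 0.07. ANGPT1, which stabilizes vessels, rose by 0.43 ± 0.06 without and 0.31 with Cyss, and did not pass the interaction (edgeR adjusted p = 0.379).

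The activin, BMP and TGF-beta genes moved both ways, with 6 of 25 upregulated and 6 downregulated. This was 24% in each direction, against 5.98% up and 4.09% down of all genes tested. Without GFP replicate 3 the counts were 9 and 8. The ligands BMP2, with 1565, 1697 and 2139 normalized counts in the NRF2 libraries and 456, 547 and 821 in the GFP libraries (log2FC 1.57 ± 0.17, edgeR adjusted p = 0.000284), and INHBA, the activin A subunit, with 24805, 25746 and 25288 normalized counts in the NRF2 libraries and 15344, 16144 and 18809.6 in the GFP libraries (log2FC 0.59 ± 0.07, edgeR adjusted p = 0.000315), rose, as did the receptors TGFBR2 (0.33 ± 0.05) and TGFBR3 (0.43 ± 0.07). The downregulated genes included ID1, ID2 and ID3, inhibitors of helix-loop-helix factors that BMP signals are known to induce. ID3 had 2407, 2288 and 2146 normalized counts in the NRF2 libraries and 4106, 4233 and 3288 in the GFP libraries, 1.70-fold lower and without overlap (log2FC -0.76 ± 0.08, edgeR adjusted p = 0.000284), and ID1 and ID2 had log2FCs of -0.57 ± 0.08 and -0.59 ± 0.09. The ligands BMP4 and TGFB3 fell with log2FCs of -0.56 ± 0.13 and -0.40 ± 0.11. GFP replicate 3 was the GFP library nearest to the NRF2 libraries in ID3, and without it the log2FC was -0.86. INHBB, another activin subunit, had a log2FC of -0.25 ± 0.11 without Cyss and 0.46 with Cyss (interaction -0.69 ± 0.12, edgeR adjusted p = 0.00195).

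Among genes of the response to amino acid shortage, 4 of 10 listed as brakes on mTORC1, the kinase complex that drives growth, fell. This was 40% of the list, against 4.09% of all genes tested. DDIT4 (REDD1), which represses mTORC1 under stress, had 1562, 1476 and 1605 normalized counts in the NRF2 libraries and 2550.4, 2655 and 2473 in the GFP libraries, 1.65-fold lower, with tight groups that did not overlap (log2FC -0.73 ± 0.05, edgeR adjusted p = 1.11e-05). With Cyss its log2FC was 0.01, and the interaction was -0.72 ± 0.07 (edgeR adjusted p = 0.000122). TSC22D3, DEPTOR and SESN3 fell with log2FCs of -0.70 ± 0.08, -0.60 ± 0.15 and -0.59 ± 0.15. TSC22D3 stood in this list but is not an established inhibitor of mTORC1. SESN2, a leucine sensor induced by amino acid shortage, was not called (0.02 ± 0.06). Among 17 regulators of the integrated stress response, PPP1R15A, which directs the phosphatase that ends this response, and CEBPB rose by 0.49 ± 0.08 and 0.42 ± 0.07, and DDIT3 (CHOP) and NUPR1 fell, DDIT3 with 619.8, 695 and 739 normalized counts in the NRF2 libraries and 857, 917 and 868 in the GFP libraries (log2FC -0.36 ± 0.07, edgeR adjusted p = 0.00344). ATF4 and TRIB3 were not called (-0.18 ± 0.06 and -0.05 ± 0.06). The calls were 11.8% of these regulators in each direction, against 5.98% up and 4.09% down of all genes tested. Of 14 genes for amino acid synthesis and 21 for charging of tRNA, none was called in either direction by edgeR or DESeq2, and 5 and 7 had an unadjusted p under 0.05 in edgeR, a share near the 34.5% of all genes. ASNS, asparagine synthetase, had a log2FC of -0.25 ± 0.05 (edgeR adjusted p = 0.00839). Of 12 amino acid transporters 4 rose, or 33.3%, against 5.98% of all genes tested. They were SLC7A11 and the cationic transporters SLC7A2, with 5859, 6094 and 6422 normalized counts in the NRF2 libraries and 2673, 3202 and 3630.2 in the GFP libraries (log2FC 0.95 ± 0.09, edgeR adjusted p = 0.000129), and SLC7A1 (0.33 ± 0.05), together with SLC36A4 (0.36 ± 0.06). SLC7A2 and SLC7A1 had log2FCs of -0.10 and -0.04 with Cyss.

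For growth and death, CCND1 (cyclin D1) had 25107, 25281 and 27210.00 normalized counts in the NRF2 libraries and 14111, 15074 and 18700.00 in the GFP libraries (log2FC 0.70 ± 0.09, edgeR adjusted p = 0.0004), and the cell cycle inhibitor CDKN1A (p21) had 2665, 3169.8 and 4050.2 normalized counts in the NRF2 libraries and 1274, 1452 and 2186 in the GFP libraries (log2FC 1.01 ± 0.17, edgeR adjusted p = 0.00225). In both, NRF2 cells lay above GFP cells in every library. Of 29 proliferation genes only CCND1 rose, and the mitotic cyclins CCNB1 and CCNB2 fell with log2FCs of -0.33 ± 0.06 and -0.40 ± 0.05, while the list's median was -0.18. The calls were 3.45% of the list up and 6.9% down, where 5.98% and 4.09% of all genes tested were called. Among cell death genes 6 of 16 rose and 1 fell (6 and 2 without GFP replicate 3), 37.5% and 6.25% of the list. These included the death receptors TNFRSF10B and TNFRSF10A (0.53 ± 0.08 and 0.48 ± 0.10) and PMAIP1 (NOXA, 0.63 ± 0.11), which promote apoptosis, and the survival proteins MCL1 and BCL2L1 (0.36 ± 0.06 and 0.33 ± 0.05). BMF, a promoter of apoptosis, fell with a log2FC of -0.40 ± 0.14. Of 19 hypoxia-type and glycolysis genes 4 rose and 1 fell (3 and 1 without GFP replicate 3), 21.1% and 5.26% of the list. The median log2FC of this list was 0.10. Its glycolysis enzymes HK2 and PFKFB3 rose by 0.80 ± 0.12 and 0.42 ± 0.07.

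The decreases were led by genes of low to moderate level. PPP1R3C, a subunit that directs a phosphatase to glycogen, had 59.6, 47.7 and 53.1 normalized counts in the NRF2 libraries and 122, 133 and 87.7 in the GFP libraries, 2.13-fold lower (log2FC -1.09 ± 0.17, edgeR adjusted p = 0.00144). UBE2QL1, a ubiquitin-conjugating enzyme, had 111, 90.6 and 73.9 normalized counts in the NRF2 libraries and 244, 176 and 161 in the GFP libraries (log2FC -1.08 ± 0.18, edgeR adjusted p = 0.00187) and SAMD11 32.8, 43.8 and 48.3 normalized counts in the NRF2 libraries and 83.4, 87.8 and 83.5 in the GFP libraries (log2FC -1.02 ± 0.16, edgeR adjusted p = 0.00124), the last sharing exonic bases with NOC2L on the other strand. The interferon-induced IFIT1 had 57.6, 84.8 and 72.0 normalized counts in the NRF2 libraries and 149.5, 180.1 and 102 in the GFP libraries (log2FC -1.01 ± 0.20, edgeR adjusted p = 0.00474), and of 18 interferon genes it was the 1 called, whereas 3 were called downregulated without GFP replicate 3. IFIT1 made up 5.56% of its list, near the 4.09% of all genes tested that were downregulated. LGR5, a receptor for R-spondins, and DACT1, an antagonist of WNT signaling, had 239, 216 and 164 normalized counts in the NRF2 libraries and 445, 409.6 and 303 in the GFP libraries (log2FC -0.90 ± 0.15, edgeR adjusted p = 0.00213) and 727, 639 and 565 normalized counts in the NRF2 libraries and 1311, 1296 and 995 in the GFP libraries (log2FC -0.90 ± 0.11, edgeR adjusted p = 0.0004). These 6 genes were chosen among genes whose groups did not overlap. Over all genes tested, 19.7% had every NRF2 library below every GFP library. In PPP1R3C, UBE2QL1, IFIT1, LGR5 and DACT1 GFP replicate 3 was the lowest of its group. By difference in counts, POSTN was followed by TGFBI, a matrix protein, with 33328, 36661 and 37980.4 normalized counts in the NRF2 libraries and 49888, 50481 and 47291 in the GFP libraries (log2FC -0.45 ± 0.05, edgeR adjusted p = 0.000284), and by ACTA2, smooth muscle actin, with 13158, 12808 and 13254 normalized counts in the NRF2 libraries and 17926, 17919 and 15510.4 in the GFP libraries (log2FC -0.39 ± 0.06, edgeR adjusted p = 0.000879). ACTA2-AS1, its antisense RNA, fell as well (log2FC -0.93 ± 0.25, edgeR adjusted p = 0.0232), but reads of the pair cannot be told apart where their exons overlap. The matricellular WISP1, the nuclear RNA NEAT1 and the kinesin KIF20A fell with log2FCs of -0.36 ± 0.07, -0.41 ± 0.08 and -0.35 ± 0.05.

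Large groups of housekeeping genes had small log2FCs below 0 that seldom reached the fold threshold. Of 80 cytosolic ribosomal proteins, 3 had a log2FC above 0, and the median was -0.20. The 4 called downregulated, RPL39, RPS27A and RPL39L among them, were 5% of the list, near the 4.09% of all genes tested. Of 78 nuclear genes of oxidative phosphorylation, 4 were above 0, and the median was -0.22. Called downregulated were 4, or 5.13%, again near the 4.09% of all genes. An unadjusted p under 0.05 for a decrease was found in 61 of the 78, where 34.5% of all genes had one in either direction. The proteasome (46 genes) and mitochondrial ribosome (75 genes) had medians of -0.15 and -0.17. Without GFP replicate 3, 5 genes of oxidative phosphorylation were called downregulated, and in the mitochondrial ribosome the calls went from 1 up and 1 down to 4 down. Of 23 tested histone genes, 5 were downregulated (4 without GFP replicate 3), or 21.7%, against 4.09% of all genes. HIST1H2AC had a log2FC of -0.61 ± 0.07 and HIST1H3H of -0.86 ± 0.18. Many ribosomal protein genes have near-identical copies, and the share of reads that did not map to a single place was 6.08 to 6.49% in the NRF2 libraries and 6.70 to 6.81% in the GFP libraries. The part of this in the result was not tested.

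Without Cyss, the direction of change varied with the summed exonic length of the gene. Over 14442 genes with a known exonic length, 83.5% of those tested, the Spearman correlation between log2FC and exonic length was 0.251 without Cyss and -0.005 with Cyss, described across genes that share the same libraries and are not independent replicates. When genes were ranked by length into 10 bins of equal size, the bin with the shortest exons in sum, up to 1439 bases, had a median log2FC of -0.11, with 2.35% of genes upregulated and 6.09% downregulated. In the longest bin, from 11883 bases, the median was 0.06, with 9.83% upregulated and 1.8% downregulated. Without GFP replicate 3 these medians were -0.10 and 0.06. The lists differed in the same measure, from a median of 624 bases for histones to 7441 for the glutathione targets. Between them lay oxidative phosphorylation (2545), mitochondrial ribosome (2549), cytosolic ribosomal proteins (3208) and inflammatory genes (3394), then immediate early genes (3707), proteases (3806.5) and the ERK list (4734). This measure sums all annotated exons of a gene, so it can exceed the length of any single transcript. The part of length in the results on these lists was not tested.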

How the data were processed

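RNA-seq was measured in 12 libraries of Hs 578T cells, of which 6 are described here. The authors mapped single-end NextSeq 500 reads to hg19 with TopHat 2.1.0 and counted reads on exons per gene with HTSeq 0.11.2 in its intersection-nonempty mode without strand. The deposited values are raw counts per gene symbol, and the annotation behind the symbols is not given in the sources used here. The 5 HTSeq counters, 15.9 to 17.1% of reads in the 6 libraries, and 523 genes named as rRNA were left out.

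The 6 libraries were normalized by TMM, and counts were divided by the effective library size over its mean. edgeR 4.0.16 in R 4.3.3 fitted the quasi-likelihood test with group as the only term. The effect with Cyss and the interaction came from one fit of all 12 libraries (17674 genes). Replicate pairs differed by more than sampling noise (chi-square per degree of freedom 2.73 to 11.7), so each counted as 1 replicate. Positions and lengths are from GENCODE 44 on GRCh37, in which 13427 tested genes were found as listed and 1015 under a newer name, and promoter windows from RefSeq (GRCh38.p14). No coordinates were converted. Figures used Python 3.11.15 with matplotlib 3.10.9.

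Named genes were NFE2L2, per direction the 15 DEGs of largest log2FC whose groups did not overlap and whose higher group averaged 50 counts or more, per direction the 10 DEGs without overlap that differed most in counts, up to 4 DEGs per direction of each gene list with members that define its role, and genes that the study names. PGR, IL33 and further members of the lists were chosen after their values were seen. The comparison, gene lists and tests were chosen with earlier results of these data known. The procedure was tested on simulated data. Alternatives were DESeq2 1.42.0 (size factors and Wald test), scaling by library size, edgeR's filterByExpr, no filter, a fit of all 12 libraries, a block for the replicate number, changed thresholds and the removal of single libraries. Leaving out replicate 3 of both groups was added after the data were examined. Some results are not reported here.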

Additional observations from a re-analysis of the deposited data

Results flagged for a closer look

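The effect of NRF2 differed between the media, by the interaction term in edgeR over the 12 libraries with an adjusted p under 0.1, in 34 of 54 genes considered, which were the genes named for the size of their change and those the study names. These were chosen for large changes in the same libraries without Cyss, or named by the study from these data, which favors passing, so that their share cannot be set against the 15.1% of all 17674 genes that passed. In 19 of the 34 the effect was higher without than with Cyss and in 15 it was lower, each value below being the log2FC without Cyss minus that with Cyss in the same fit.

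Among genes of signaling, inflammation and secretion, the difference was 2.45 for ESM1, 2.13 for ANGPTL4, 1.95 for PTGS2, 1.76 for EGR1, 1.6 for SERPINB2, 1.59 for CXCL3, 1.57 for DUSP6, 1.56 for STC1 and 1.14 for IL8. The edgeR adjusted p values of these ranged from 0.000639 for EGR1 to 0.0291 for ANGPTL4. The clone-named transcripts RP11-594N15.3 and AC003092.1 gave 1.89 and 1.36. Smaller differences were found for RGS17, a regulator of G protein signaling (0.86), SLC18A2, a monoamine transporter (0.61), CHIC1 (0.54), GPR157 (0.45), the inositol transporter SLC5A3 (0.42), TGFBR3 (0.37), the nuclear receptor PPARA (0.32) and TXNRD1 (0.27). Of these 19 genes, EGR1, IL8 and TXNRD1 were upregulated with Cyss as well, at log2FCs of 0.77, 1.16 and 0.35.

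A lower effect without Cyss had 2 forms. In TRIM16L (-0.52), AKR1B10 (-0.53) and INHBB (-0.69) the log2FCs were 0.54, 1.44 and 0.46 with Cyss and 0.01, 0.89 and -0.25 without, where only AKR1B10 was called. In the other 12, NRF2 lowered the gene without Cyss and had an effect between -0.19 and 0.24 with Cyss. These were DACT1 (-0.71), DDIT4 (-0.72), PKDCC (-0.73), LINC01018 (-0.75), LGR5 (-0.75), SAMD11 (-0.82), HIST1H3H (-0.9), IFIT1 (-0.94), MFI2-AS1 (-0.99), UBE2QL1 (-1.13), ACTA2-AS1 (-1.16) and PPP1R3C (-1.17). DDIT4 had the smallest adjusted p of the 34 in edgeR (0.000122). GFP without Cyss replicate 3, which stood nearer to the NRF2 libraries than the rest of its group, is in every one of these tests.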

How the results depend on the processing

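No DEG changed its direction to a call of the opposite sign under any alternative, but the balance of calls turned when libraries were scaled by size alone. The counts of 1034 upregulated and 708 downregulated genes moved to 1087 and 646 with DESeq2's size factors, 1014 and 692 with filterByExpr, 1131 and 754 with no filter, and 1178 and 710 with all 12 libraries in the fit. DESeq2's Wald test called 849 and 422. Without the fold threshold 2425 and 2551 were called. Scaling by library size alone gave 876 and 1001, so that 46.7% of the DEGs were upregulated, against 59.4% with TMM. Leaving out 1 library gave 765 to 1188 upregulated and 425 to 840 downregulated genes, with 464 downregulated without GFP replicate 1 and 425 without GFP replicate 2, and 606 upregulated and 236 downregulated genes were called in all 6 of these fits. Without replicate 3 of both groups the counts were 1360 and 984. For the interaction, 1585 positive and 1084 negative genes, library size alone gave 1124 positive and 1981 negative, an excess of negative differences, and an adjusted p under 0.05 gave 528 negative. Leaving out 1 library gave 913 to 2119 positive and 482 to 1562 negative. The positive count fell to 964 without NRF2 with Cyss replicate 3 and 913 without GFP without Cyss replicate 2. The negative count fell to 590 without NRF2 with Cyss replicate 3, to 609 and 705 without GFP with Cyss replicates 1 and 3, and to 666 and 482 without GFP without Cyss replicates 1 and 2. GFP replicate 3 lay 24.03% of the way to NRF2 on PC1 over the 500 most variable genes, against 28.4% over all. Of 166 named genes, 142 to 166 kept their direction and side of the threshold under each alternative, fewest without NRF2 replicate 1 (142) and GFP replicate 1 (143). The causes were not tested.

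The replicate numbers were not taken to pair the libraries, since the labels name no shared culture or day. The correlations of deviations between libraries of the same number were 0.0829, -0.0344 and 0.141. Those between libraries of different numbers ran from -0.159 to 0.0835, so that replicate 3 of both groups gave the highest. In some genes, such as DUSP6 and IL8, counts rose from replicate 1 to 3 in both groups, and in others, such as EGR1, they did not. The reason was not tested. A fit with the number as a block called 1103 upregulated and 801 downregulated genes, 1027 and 703 of them among those of the fit without it.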

Other observations

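Genes that keep the cell's content of small organic solutes rose. All 4 tested members of the osmolyte list were upregulated without Cyss, with a median log2FC of 0.44 without and 0.15 with Cyss, where 5.98% of all genes were upregulated. AKR1B1, the aldose reductase that makes sorbitol, had 11939, 12854 and 14578 normalized counts in the NRF2 libraries and 8969.9, 9200.2 and 8885 in the GFP libraries (log2FC 0.54 ± 0.06, edgeR adjusted p = 0.000284). The inositol transporter SLC5A3 (0.46 ± 0.07), the taurine transporter SLC6A6 (0.40 ± 0.05) and the transcription factor NFAT5 (0.43 ± 0.10) rose less. The groups did not overlap in these 4 genes. The interaction was passed by SLC5A3, SLC6A6 and NFAT5 and not by AKR1B1 (edgeR adjusted p = 0.913). Of 7 tested metallothioneins and zinc transporters, MT2A, a metallothionein, was the 1 upregulated, or 14.3%, against 5.98% of all genes. MT2A had 9556, 10372 and 11799.8 normalized counts in the NRF2 libraries and 5647, 7183 and 8266 in the GFP libraries (log2FC 0.59 ± 0.11, edgeR adjusted p = 0.00396). Of 16 mesenchymal and stem-like markers 6 were upregulated without GFP replicate 3, and 4 with it, or 25%, against 5.98% of all genes. The 4 were ALDH1A3, NT5E, TWIST2 and FOXC2, at 0.54 ± 0.10, 0.37 ± 0.07, 0.36 ± 0.09 and 0.34 ± 0.06.

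PGR, the progesterone receptor, is little transcribed in this line, which comes from a triple-negative tumor, and had 11.9, 17.5 and 19.9 normalized counts in the NRF2 libraries and 1.92, 1.10 and 0 in the GFP libraries (log2FC 3.85 ± 0.56, edgeR adjusted p = 0.00102). The groups did not overlap, and it passed the test with Cyss too (edgeR adjusted p = 0.0107). At so few counts the size of the change is imprecise. Of 16 genes of ferroptosis, the iron-dependent form of cell death, SAT1, which degrades polyamines, was the 1 upregulated (log2FC 0.42 ± 0.11, edgeR adjusted p = 0.0215), with overlap between the groups, and 2 genes of this list were called without GFP replicate 3. SAT1 made up 6.25% of the list, near the 5.98% of all genes tested that were upregulated. GPX4, which reduces lipid peroxides, had 4608, 4723 and 5068 normalized counts in the NRF2 libraries and 4621, 5199 and 4694 in the GFP libraries (log2FC -0.01 ± 0.05, edgeR adjusted p = 0.905). Among 14 tested selenoproteins, DIO2 rose by 0.50 ± 0.11 and SEPW1 fell, with a log2FC of -0.37 ± 0.06, and 1 rose and 2 fell without GFP replicate 3. The selenoprotein calls were 7.14% of the list in each direction, where 5.98% of all genes tested were upregulated and 4.09% downregulated. Of 13 mitochondrially encoded mRNAs, 1, MT-ND1, was upregulated (0.39 ± 0.08), or 7.69% against the 5.98% of all genes. Of 24 genes that the study names from its RNA-seq, a list drawn from these libraries and so no independent evidence, 20 were upregulated and 1 downregulated (20 and 2 without GFP replicate 3).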
